A study of Mus musculus with 12 samples.

Results

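The genes described here encode the COPI and COPII vesicle coats and the cargo receptors of the p24 and mannose lectin families that ride in those vesicles. A gene belonged to the set when its symbol, as written in the label of a listed transcript, was on a list of 33 symbols, and all 33 were found among the 15803 transcripts listed in at least 1 library, with 1 transcript for each gene. COPII vesicles bud from exit sites on the endoplasmic reticulum (ER) after the exchange factor Preb loads the GTPase Sar1, which recruits the inner coat of Sec23 and Sec24 and then the outer cage of Sec13 and Sec31. COPI vesicles, built from a complex of coatomer subunits recruited by Arf GTPases, return escaped ER proteins and receptors from the Golgi apparatus. The p24 proteins cycle between both organelles and bind both coats through their cytoplasmic tails, and every protein a pancreatic tumour cell secretes or sends to its surface by the usual route passes through this machinery.

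The study measured ribosome footprints and RNA in KPC cells treated with cisplatin (Cis), a platinum drug that damages DNA. KPC is an established mouse line of pancreatic ductal adenocarcinoma; its source tumours carried Trp53 LSL-R172H, an allele that Cre recombinase expressed from the Pdx1 promoter switches on. The 12 libraries were 6 of footprints and 6 of RNA, with 2 for each of 3 groups in an assay: cells without treatment, cells after 6 h of Cis and cells after 21 h of Cis. Footprints are the stretches of mRNA that ribosomes shield from RNase I, sequenced after lysis with cycloheximide, and the RNA came from the same kind of lysate. The untreated cells are called PBS here, after the vehicle named in the methods, where the dose of Cis is 20 µM; for PBS the methods name 6 or 21 h too, and no label says which time these libraries had. The same PBS libraries were the control at both times, so the comparisons with PBS share them. Between the 6 h and 21 h libraries, time in Cis and time in culture cannot be told apart. No label says whether the 2 libraries of a group came from separate cultures, so every p-value below measures the spread between libraries only.

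Levels are in RPKM, reads per kilobase of sequence scaled to the size of the library, where the length is that of the coding sequence in footprints and of the whole transcript in RNA. Whole reads recovered from these values summed to between 3375480 and 5204127 per footprint library, with a median of 4173675. The RNA libraries held 1985344 to 2901692 reads, with a median of 2319069. Between 51.8% and 56.6% of the RNA reads fell on 3 transcripts, Lars2, Tmem38b and Mettl26, which left 862476 to 1341584 reads for all other transcripts. In footprints the same 3 held only 0.004% to 0.005% of reads. Whether their RNA reads came from these mRNAs was not tested. On the log2 scale the 2 libraries of a group correlated across transcripts at Pearson's r of 0.988 to 0.991 in footprints and 0.968 to 0.976 in RNA, where transcripts are not independent replicates.

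The label of an epithelial tumour line was compared with marker genes. In the PBS libraries footprints stood at 4819 and 4679 RPKM for Krt8, 1720.0 and 1570.0 for Krt18, 3082 and 2683 for Krt19, and 138.5 and 146.8 for Cdh1. Epcam, another epithelial marker, had only 1 to 9 footprint reads in a library, 0.287 to 1.83 RPKM. Vim was high, at 3614 and 3606 RPKM in PBS, while the fibroblast markers Pdgfra, Pdgfrb, Dcn and Lum had at most 6 footprint reads and Col1a1 at most 26. Of the leukocyte markers, Ptprc and Adgre1 had at most 3 reads in a library and Cd68, the most abundant, had 4 to 20. The endothelial markers Pecam1 and Cdh5 had at most 4 reads, and of the acinar markers Cela1 had 7 to 18 while Cpa1 and Ptf1a were not listed. The 7 epithelial markers, all of them listed, summed in footprints to 9794 and 9113 RPKM in PBS, 9371 and 9313 at 6 h, and 6728 and 6861 at 21 h, with Krt8 the most abundant in each library. In RNA they summed to 1527 and 1471, 1472 and 1412, and 1322 and 1368 RPKM in the same order. They did not move together in footprints: at 21 h Krt8 was at 3214 and 3261 RPKM and Krt19 at 1716 and 1608, below PBS, while Krt18 was at 1668 and 1856, overlapping PBS, and Sox9 went from 13.01 and 11.1 in PBS to 30.9 and 22.8. The 7 mesenchymal or fibroblast markers summed to 3647 and 3638, 3884 and 3823, and 2940 and 2878 RPKM in the same order, nearly all of it Vim. Of these Cdh2 fell further than the sum, from footprints at 31.67 and 30.31 RPKM in PBS to 21.02 and 22.89 at 6 h and 7.585 and 7.584 at 21 h, and from RNA at 7.212 and 7.756 to 4.576 and 3.845 and then 2.039 and 2.47. In footprints summed leukocyte markers were at 2.07 and 2.35, 2.31 and 1.73, and 10.4 and 3.76 RPKM, and Cela1 was at 1.69 and 3.23, 2.67 and 3.34, and 6.12 and 6.10. In RNA the leukocyte sums were 0.403 and 1.03, 0 and 0, and 2.13 and 4.475 RPKM. Cela1 RNA did not rise, at 2.20 and 2.80, 2.73 and 0.782, and 2.325 and 0.432 RPKM. The part of these marker changes in the results below was not tested, and in bulk samples fewer cells of a type and less RNA per cell cannot be told apart.

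For the tests, RPKM were put on a common scale inside an assay with median-of-ratios factors, and a transcript was kept when its mean reached 1 scaled RPKM, 10383 in footprints and 9443 in RNA. Fold changes were fitted with limma on log2(RPKM + 0.5), and a transcript was called at an adjusted p under 0.05 (Benjamini-Hochberg over all transcripts tested), with no limit on the size of the change. Of the 33 members 32 passed in both assays; the other, Tmed8, had 0 to 4 footprint reads and 1 to 5 RNA reads in a library and was not tested. An exact two-sided permutation test of 2 libraries against 2 cannot give a p under 0.333, so no p below comes from one. Scaling mattered in RNA: without it the median log2 fold change of all transcripts at 21 h against 6 h was 0.15, against 0.014 with it, and the changes below are relative to the scaled median. RPKM of single libraries and their sums are as deposited, before scaling by factors of 0.979 to 1.02 in footprints and 0.913 to 1.04 in RNA.

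The median footprint level of a member in PBS was 71.4 RPKM, beside 17.6 for all transcripts tested, and levels ran from 7.14 RPKM for Copz2 to 398 for Tmed10 among the 32 tested. Translation efficiency (TE), the ratio of scaled footprint RPKM to scaled RNA RPKM, had a median of 4.27 over the members in PBS and 3.49 over all 9295 transcripts tested in both assays. RNA RPKM are diluted by the reads assigned to Lars2, Tmem38b and Mettl26, so only differences between genes in this ratio can be read. Among the members it ran from 1.71 for Sec24c and 1.81 for the exit site scaffold Sec16a to 12.9 for Tmed5, a p24 protein. These are descriptions of level, and no test compared the members with other genes.

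In footprints at 6 h of Cis no member was called (0 of 32), where 2.04% of all transcripts were. An unadjusted p under 0.05 was reached by 4 members, 12.5% beside 21.4% of all transcripts, and limma-voom on the recovered reads called 1, Copg2, beside 12.3% of all transcripts. The 4 were Copg2 (log2 fold change -0.44), Tmed10 (-0.18), Sar1a (0.24) and Tmed1 (0.28). At 21 h against PBS 9 of 32 members were called, 28.1%, where 39.1% of all transcripts were. Of the 9, 5 were higher, where 18.9% of all transcripts were higher, and 4 were lower, where 20.2% were lower. The member median was a log2 fold change of -0.0081 (0.028 without scaling), beside 0.0063 for all transcripts, and 16 of the 32 members were above 0. Between 21 h and 6 h, the test of whether the 2 times differed, 8 of 32 members were called, 25.0%, where 30.7% of all transcripts were. These split into 4 higher, with 15.0% of all transcripts higher, and 4 lower, with 15.7% lower. That count fell from 8 to 4 without 6 h library 1 and to 3 without 6 h library 2. The members were thus called at a share no higher than that of all transcripts in any of the 3 footprint comparisons, and they moved in both directions.

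RNA gave fewer calls. At 6 h limma called no member (0 of 32) and 0% of all transcripts, 2 members had an unadjusted p under 0.05, Copg2 (log2 fold change -0.66) and Copz2 (-0.89), and voom called 0 members. Over all transcripts 11.5% had such an unadjusted p and voom called 2.43%. At 21 h against PBS 6 of 32 members were called, 18.8%, where 23.8% of all transcripts were. The 3 higher members stood beside 11.6% of all transcripts, and the 3 lower members beside 12.2%. Over all transcripts these were 1093 higher and 1152 lower calls, and without scaling 1365 were higher and 966 lower, with 4 members higher and 2 lower. Without PBS library 1 only 3 of the 32 were called, without PBS library 2 only 2, and without 21 h library 2 only 3. At 21 h against 6 h 3 of 32 members were called, 9.4%, where 15.7% of all transcripts were, with 1 higher beside 7.53% of all transcripts and 2 lower beside 8.21%. Over all transcripts that comparison had 711 higher and 775 lower calls, and without scaling it had 1233 higher and 516 lower. Of the 9 members called in footprints and the 6 called in RNA at 21 h against PBS, 4 were called in the same direction in both, 44.4% of the footprint calls and 66.7% of the RNA calls: Copg2, Sec24d and Tmed10 were lower and Sec23b was higher. Among the 9295 transcripts tested in both assays 1698 were called in the same direction in both, 45.0% of the footprint calls and 76.1% of the RNA calls.

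**Figure D1:**
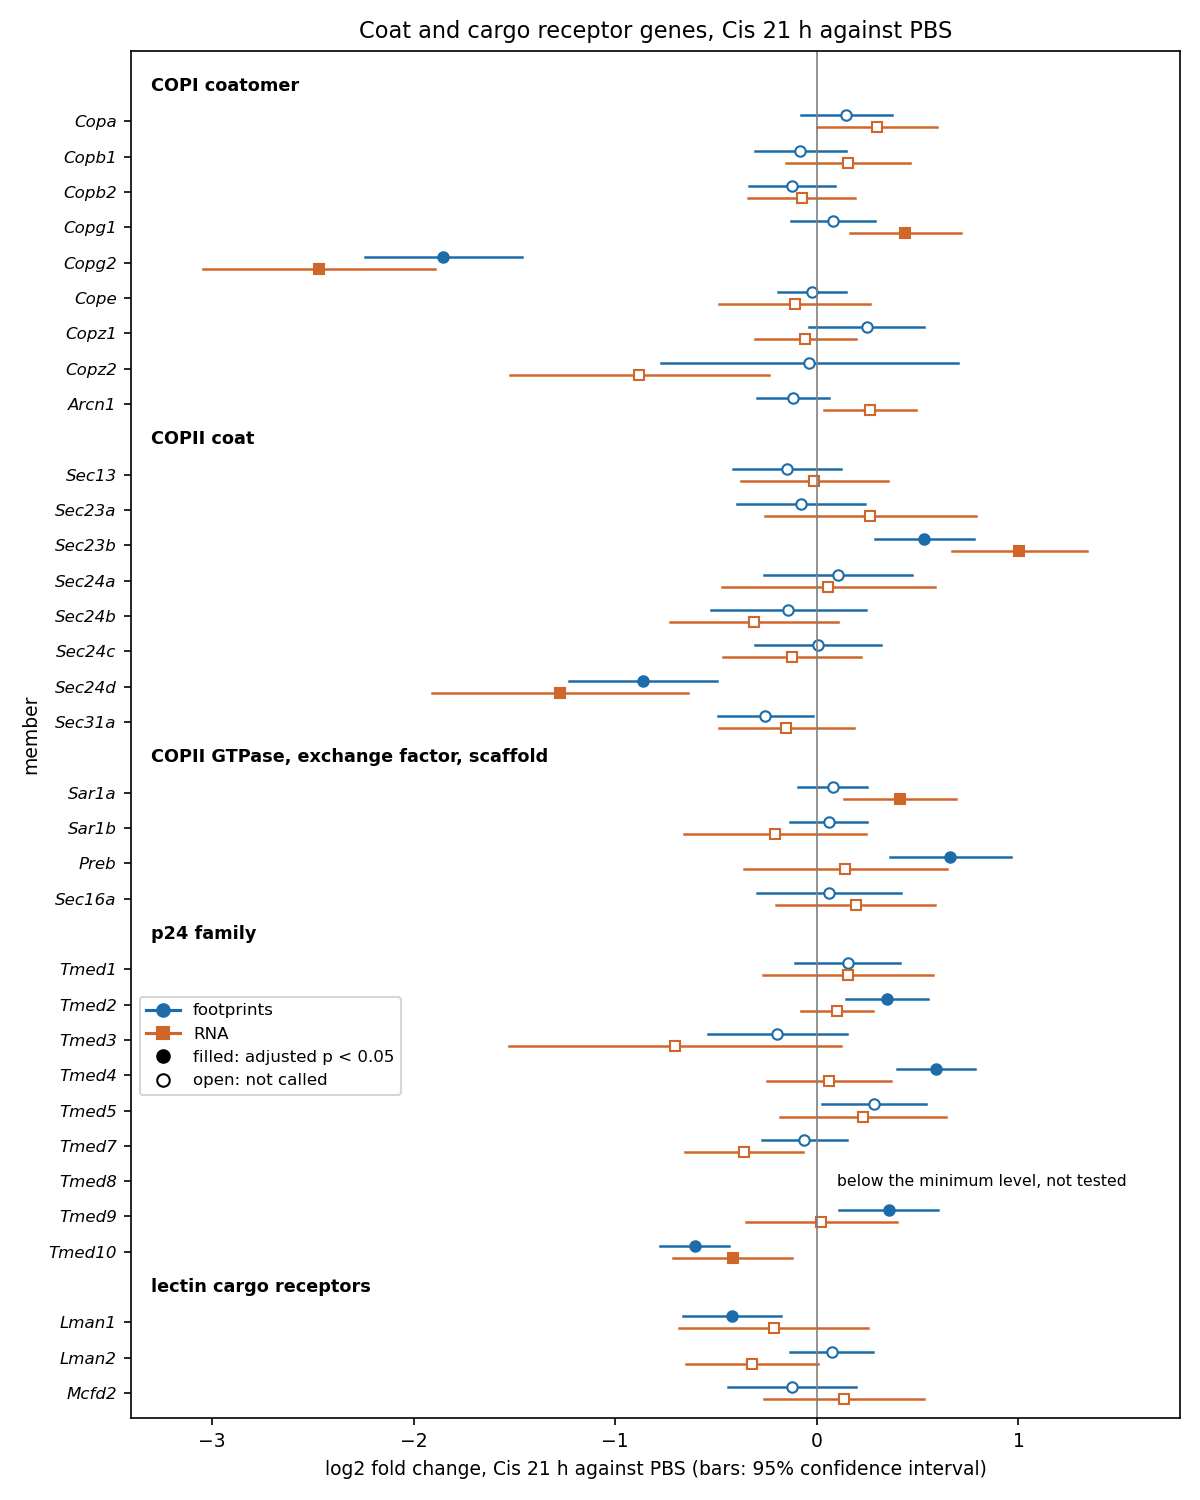
Log2 fold change at 21 h of Cis against PBS (x axis) for each member (y axis, by role), with circles for footprints, squares for RNA, bars for the 95% confidence interval and filled symbols for an adjusted p under 0.05. Copg2 lies farthest from 0, at -1.85 in footprints and -2.47 in RNA.

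Among the 9 coatomer genes Copg2 (ENSMUSG00000025607), which encodes 1 of the 2 alternative gamma subunits, changed most at 21 h against PBS in both footprints and RNA. Footprints on Copg2 were at 32.2 and 27.3 RPKM in the PBS libraries, 20.6 and 23.5 at 6 h, and 7.06 and 9.20 at 21 h. Its RNA was at 6.77 and 7.31 RPKM in the PBS libraries, 3.43 and 4.81 at 6 h, and 0.9755 and 0.8455 at 21 h. Both treated groups lay below PBS in both assays without overlap, and the 21 h libraries lay lowest of all. The fall at 21 h against PBS passed the test in footprints (log2 fold change -1.85, SE 0.17, adjusted p = 0.000130) and in RNA (log2 fold change -2.47, SE 0.26, adjusted p = 0.000313). It also passed at 21 h against 6 h, in footprints (log2 fold change -1.41, SE 0.17, adjusted p = 0.000849) and in RNA (log2 fold change -1.81, SE 0.26, adjusted p = 0.00232). These 4 calls held in each alternative that tested them, 16 for footprints and 15 for RNA. Copg2 RNA was below the minimum of 5 RPKM and was not tested with that filter. The footprint change against PBS lay between -2.03 and -1.66 and the RNA change between -2.96 and -2.11. The RNA values rest on few reads, 66 and 84 in PBS, 27 and 44 at 6 h, and 9 and 7 at 21 h. On the RefSeq annotation Copg2 overlaps the protein-coding gene Mest and the noncoding Gm38781, and whether reads were counted by strand is not given in the sources used here. Mest had 2 to 12 footprint reads and 0 to 10 RNA reads in a library, and Gm38781 was not listed.

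The other gamma subunit, Copg1 (ENSMUSG00000030058), did not follow its paralogue. Footprints on Copg1 were at 194.5 and 209 RPKM in the PBS libraries, 181 and 197 at 6 h, and 227 and 211 at 21 h. Copg1 RNA was at 27.7 and 26.4 RPKM in the PBS libraries, 27.6 and 28.25 at 6 h, and 41.1 and 37.1 at 21 h. In footprints both 21 h libraries lay just above the other 4, an order lost with scaling, and in RNA they lay above the other 4 with scaling or without. The test called Copg1 higher in RNA at 21 h against PBS (log2 fold change 0.44, SE 0.12, adjusted p = 0.0297) and not in footprints (log2 fold change 0.082, adjusted p = 0.509). That RNA call was lost without PBS library 1 (adjusted p = 0.0913), PBS library 2 (0.151) or 21 h library 1 (0.157), and also with quantile normalization (0.0861) or without the trend in limma's variance step (0.0997), over a range of 0.000224 to 0.157 in all alternatives.

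Because footprints on both gamma subunits are measured per length of coding sequence, their footprint levels can be summed. Copg1 and Copg2 together were at 226.7 and 236.7 footprint RPKM in PBS, 201.7 and 220.3 at 6 h, and 234.1 and 220.6 at 21 h, so 1 of the 21 h sums lay between the PBS values and the other just below them. The share of Copg2 in that sum was 14.2% and 11.6% in PBS, 10.2% and 10.7% at 6 h, and 3.02% and 4.17% at 21 h. In RNA, summed per length of the whole transcript, its share was 19.7% and 21.7%, then 11.1% and 14.6%, then 2.32% and 2.23%. The 21 h shares lay below all others in both assays. How reads that fit more than 1 paralogue were assigned is not given in the sources used here.

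Copz1 (ENSMUSG00000060992), the zeta subunit, was the most abundant coatomer member in PBS footprints. Its footprints were at 365 and 269 RPKM in the PBS libraries, 361 and 348 at 6 h, and 368 and 395 at 21 h. RNA of Copz1 was at 39.7 and 39.9 RPKM in the PBS libraries, 35.2 and 33.85 at 6 h, and 37.4 and 43.96 at 21 h. In footprints the PBS libraries enclosed both 6 h values and the 21 h libraries lay just above, the latter not with scaling, and in RNA the 21 h libraries fell on either side of PBS with both 6 h libraries below. Neither time was called in either assay. Its alternative, Copz2, was the least abundant tested member, with 11 to 24 footprint reads and 3 to 10 RNA reads in a library, and was not called. The other 5 coatomer genes, Copa, Copb1, Copb2, Cope and Arcn1, were not called in any comparison; over all 8 coatomer genes not called in footprints at 21 h against PBS the log2 fold change ran from -0.12 for Copb2 to 0.25 for Copz1. Summed over the 9 genes, coatomer footprints were at 1402 and 1299 RPKM in PBS, 1330.0 and 1330.0 at 6 h, and 1400.0 and 1396 at 21 h, with no library of the treated groups outside the PBS range. In RNA the sums were 234.7 and 227.6, 211.3 and 227.5, and 256.2 and 261.4 RPKM, with both 21 h sums above PBS with scaling or without, and both 6 h sums below PBS only without it.

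**Figure D2:**
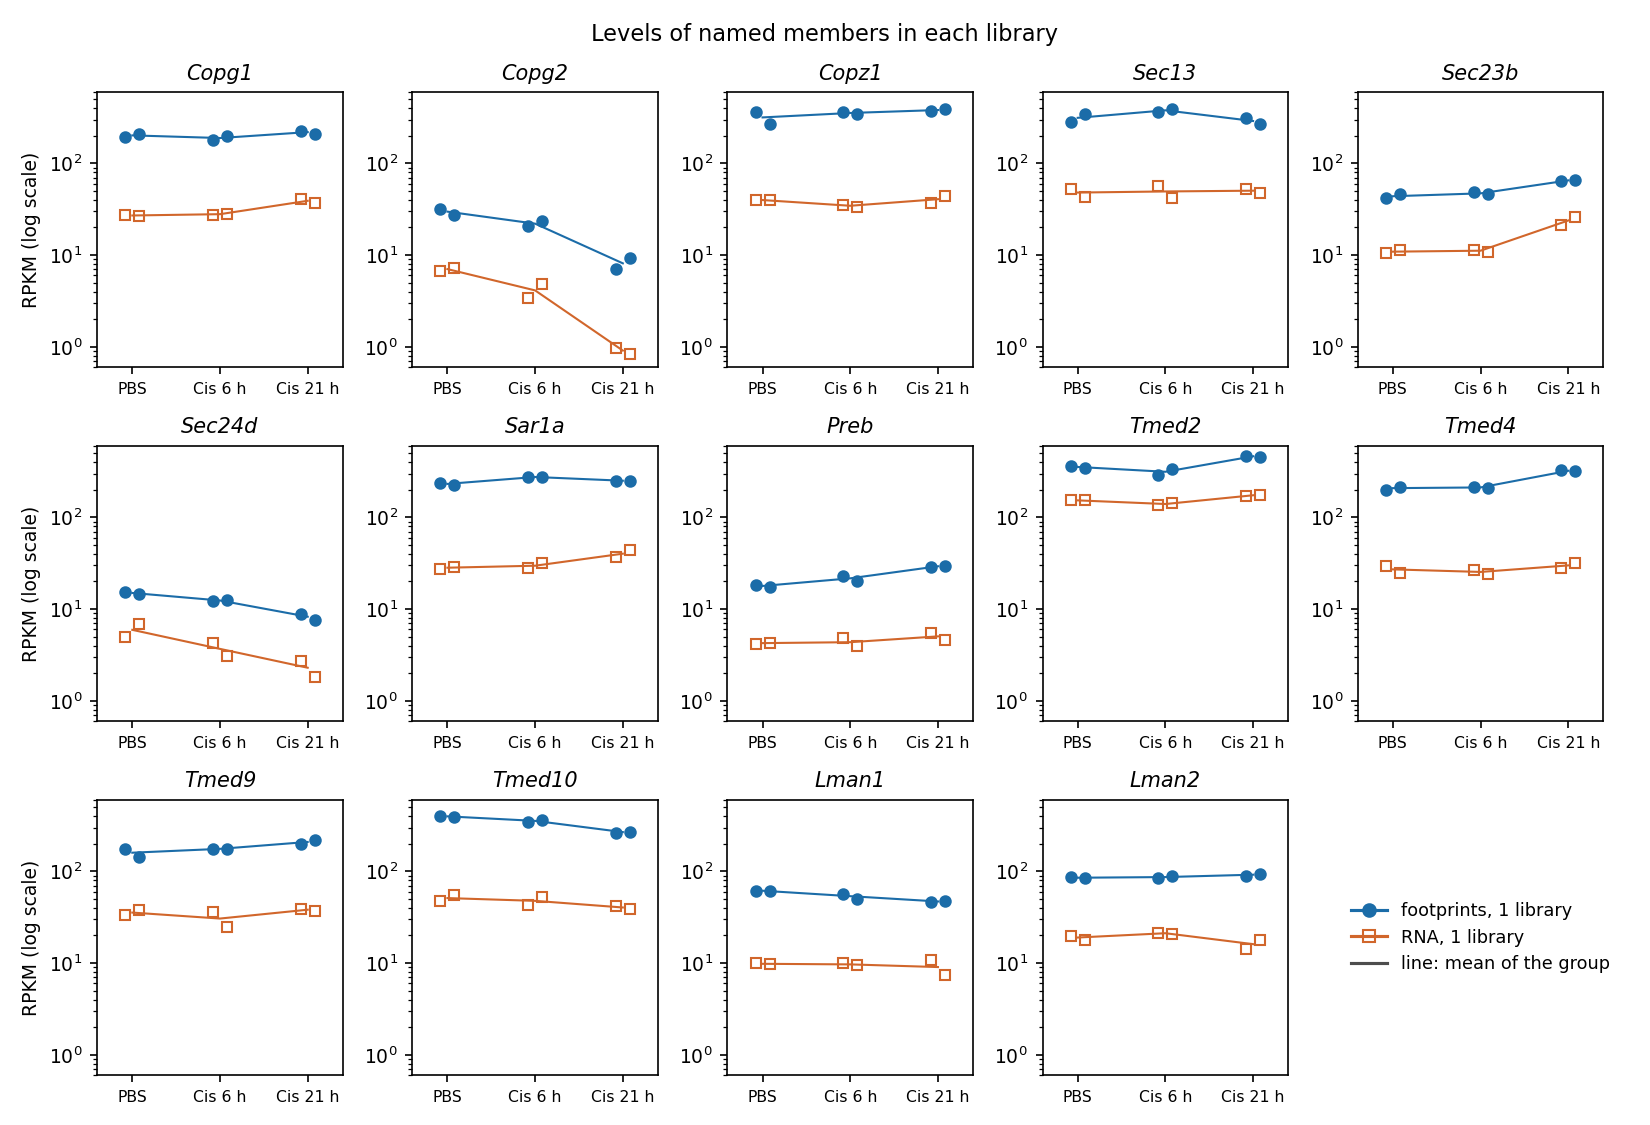
RPKM on a log axis (y axis) of 14 named members in PBS and after 6 h and 21 h of Cis (x axis), with circles for footprint libraries, squares for RNA libraries and lines through the means of the 2 libraries. Copg2 footprints go from 32.2 and 27.3 RPKM in PBS to 7.06 and 9.20 at 21 h, and Tmed4 footprints from 200.3 and 216 to 326 and 318.

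In the inner layer of the COPII coat 1 gene was called higher and another lower. Sec23b (ENSMUSG00000027429), which stimulates GTP hydrolysis by Sar1 and holds Sec24, had footprints at 41.7 and 45.97 RPKM in the PBS libraries, 48.3 and 45.96 at 6 h, and 64.8 and 65.6 at 21 h. Sec23b RNA was at 10.5 and 11.3 RPKM in the PBS libraries, 11.4 and 10.9 at 6 h, and 21.5 and 26.2 at 21 h. In both assays PBS and 6 h libraries lay close together and both 21 h libraries lay well above them. At 21 h against PBS Sec23b rose in footprints (log2 fold change 0.53, SE 0.11, adjusted p = 0.00509) and in RNA (log2 fold change 1.004, SE 0.15, adjusted p = 0.00176), and both calls held in each alternative run. Between 21 h and 6 h it rose in RNA (log2 fold change 0.91, SE 0.15, adjusted p = 0.00464), a call kept in each alternative, and in footprints (log2 fold change 0.44, SE 0.11, adjusted p = 0.0160). The latter was lost without 6 h library 1 (adjusted p = 0.0613), 6 h library 2 (0.0993) or 21 h library 2 (0.0556), in a range of 0.000892 to 0.0993. Its paralogue Sec23a was not called in any comparison. Sec23b made up 61.1% and 68.0% of summed Sec23 footprints in PBS, 70.4% and 70.2% at 6 h, and 74.3% and 73.1% at 21 h, and 69.4% and 72.5%, 70.0% and 76.4%, and 79.2% and 81.5% of Sec23 RNA.

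Sec24d (ENSMUSG00000039234) encodes 1 of 4 Sec24 proteins, the subunits that bind the sorting signals of cargo. Its footprints were at 15.45 and 14.55 RPKM in the PBS libraries, 12.2 and 12.6 at 6 h, and 8.94 and 7.58 at 21 h. For RNA the values were 4.995 and 6.89 RPKM in the PBS libraries, 4.26 and 3.11 at 6 h, and 2.75 and 1.84 at 21 h. The 3 groups did not overlap in either assay, with PBS highest and 21 h lowest. Sec24d fell at 21 h against PBS in footprints (log2 fold change -0.86, SE 0.16, adjusted p = 0.00337), a call kept in each alternative. It fell in RNA as well (log2 fold change -1.27, SE 0.28, adjusted p = 0.0109), though not without PBS library 2 (adjusted p = 0.0895) or 21 h library 2 (0.0666), in a range of 5.49e-05 to 0.0895. The footprint fall between 6 h and 21 h (log2 fold change -0.58, SE 0.16, adjusted p = 0.0254) was lost without 6 h library 1 (0.0882), 6 h library 2 (0.118) or 21 h library 2 (0.0965), and with only the 2 groups compared in the model (0.051), in a range of 0.00466 to 0.118. Sec24a, Sec24b and Sec24c were not called in any comparison. The share of Sec24d in summed Sec24 footprints went from 24.3% and 23.1% in PBS through 20.6% and 21.2% at 6 h to 15.8% and 13.1% at 21 h.

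Sec13 (ENSMUSG00000030298), which builds the outer cage with Sec31 and also belongs to the nuclear pore, was the most abundant COPII coat gene in PBS footprints. Footprints on Sec13 were at 283.5 and 344 RPKM in the PBS libraries, 364 and 393.5 at 6 h, and 309.7 and 269.7 at 21 h. Sec13 RNA was at 52.8 and 43.3 RPKM in the PBS libraries, 56.6 and 42.25 at 6 h, and 52.99 and 47.7 at 21 h. Both 6 h footprint libraries lay above all others, and the PBS and 21 h libraries overlapped; in RNA all groups overlapped. Neither time was called against PBS, and the test of 21 h against 6 h called Sec13 lower in footprints (log2 fold change -0.41, SE 0.12, adjusted p = 0.0306). The call was lost without 6 h library 1 (adjusted p = 0.0791), 6 h library 2 (0.164) or 21 h library 2 (0.143), and also with no filter on low values (0.0628) or without the variance trend (0.109), in a range of 0.00125 to 0.164. Over the 6 coat genes not called in footprints at 21 h against PBS, log2 fold changes ran from -0.26 for the cage subunit Sec31a to 0.11 for Sec24a, with a lowest adjusted p of 0.0811.

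**Figure D3:**
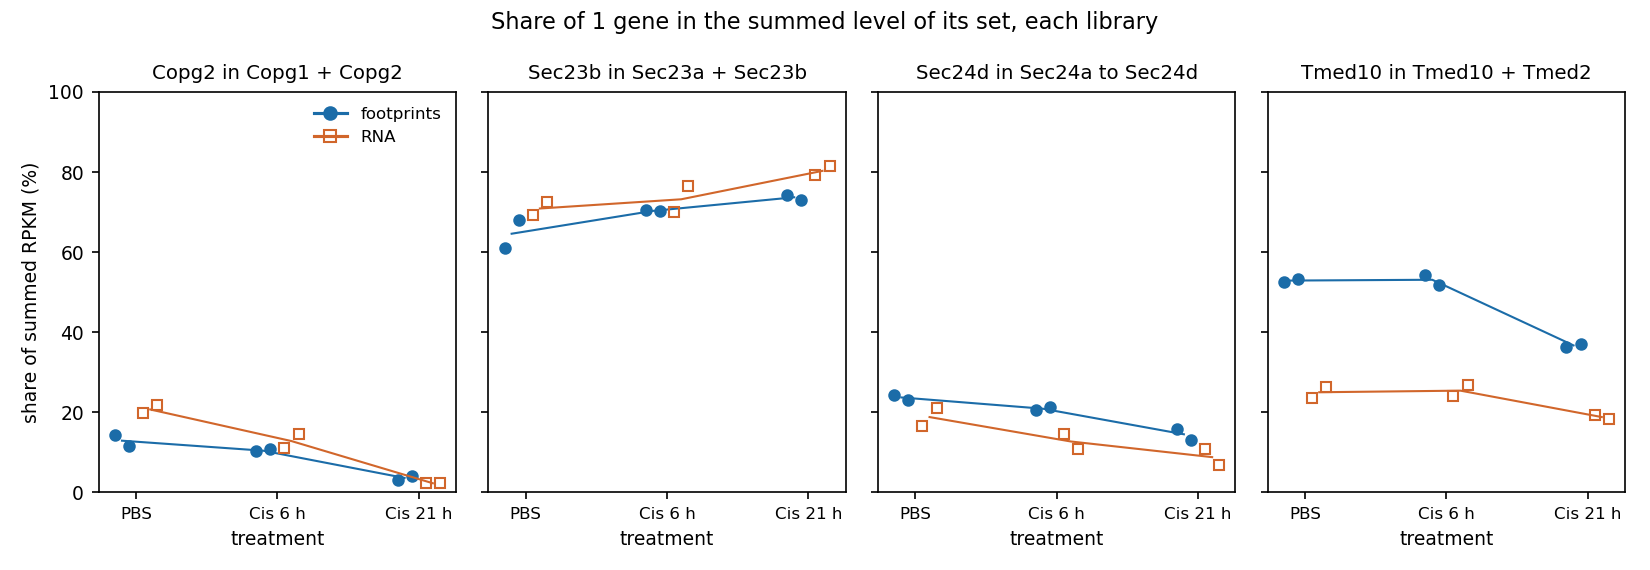
Share in percent (y axis) of 1 gene in the summed RPKM of its set, in PBS and after 6 h and 21 h of Cis (x axis), with circles for footprint libraries, squares for RNA libraries and lines through the means. The Copg2 share of footprints goes from 14.2% and 11.6% in PBS to 3.02% and 4.17% at 21 h, and the Tmed10 share from 52.6% and 53.2% to 36.2% and 37.1%.

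The switch that starts COPII assembly gave calls for 2 genes, each gene in 1 assay. Preb (ENSMUSG00000045302), the ER membrane protein that exchanges GDP for GTP on Sar1, had footprints at 18.4 and 17.3 RPKM in the PBS libraries, 23.2 and 20.1 at 6 h, and 28.8 and 29.75 at 21 h. Preb RNA was at 4.19 and 4.32 RPKM in the PBS libraries, 4.80 and 3.92 at 6 h, and 5.45 and 4.63 at 21 h. The footprint groups did not overlap, with PBS lowest and 21 h highest, whereas in RNA the 6 h libraries overlapped both other groups. Preb footprints rose at 21 h against PBS (log2 fold change 0.66, SE 0.13, adjusted p = 0.00477), a call kept in each alternative. The rise from 6 h to 21 h (log2 fold change 0.41, SE 0.13, adjusted p = 0.0452) sat at the threshold and was lost without any 1 of the 6 footprint libraries, with adjusted p of 0.0613 and 0.0617 without PBS library 1 and 2, 0.0749 and 0.239 without 6 h library 1 and 2, and 0.0911 and 0.130 without 21 h library 1 and 2. It was lost in 12 of 16 alternatives, over a range of 0.0387 to 0.239. Preb overlaps the transcribed pseudogene Abhd1, which had 11 to 33 footprint reads in a library.

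Sar1a (ENSMUSG00000020088), the more abundant of the 2 GTPase genes in footprints, stood at 235.5 and 228 RPKM in the PBS libraries, 272 and 279 at 6 h, and 251 and 251 at 21 h. In RNA it was at 27.5 and 29.02 RPKM in the PBS libraries, 27.95 and 31.5 at 6 h, and 36.6 and 43.8 at 21 h. The footprint groups did not overlap, with 6 h highest and PBS lowest, and in RNA the 21 h libraries lay above the other 4. Only the RNA rise at 21 h against PBS was called (log2 fold change 0.41, SE 0.12, adjusted p = 0.0372). It was lost without PBS library 1 (adjusted p = 0.165), PBS library 2 (0.120), 21 h library 1 (0.0509) or 21 h library 2 (0.183), and also with no filter (0.0554), quantile normalization (0.0951) or no variance trend (0.118), over a range of 0.00598 to 0.183. Sar1b and the exit site scaffold Sec16a were not called in any comparison. Sar1b, which in RefSeq is the protein-coding gene next to Sec24a, made up 42.0% and 42.1% of Sar1 footprints in PBS, 35.7% and 37.0% at 6 h, and 42.2% and 41.2% at 21 h. Its share of Sar1 RNA was 54.1% and 52.1% in PBS, 40.8% and 49.6% at 6 h, and 41.3% and 43.3% at 21 h, below PBS at both times.

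Of the 8 p24 genes tested 4 were called in footprints at 21 h against PBS, beside 39.1% of all transcripts. Tmed10 (ENSMUSG00000021248), the delta member and the most abundant of the family in PBS footprints, had footprints at 405 and 391 RPKM in the PBS libraries, 346 and 364 at 6 h, and 265 and 271 at 21 h. Tmed10 RNA was at 47.4 and 54.9 RPKM in the PBS libraries, 42.8 and 52.6 at 6 h, and 41.7 and 39.1 at 21 h. In footprints the groups did not overlap, with PBS highest and 21 h lowest, and in RNA both 21 h libraries lay below the others. Tmed10 footprints fell at 21 h against PBS (log2 fold change -0.61, SE 0.075, adjusted p = 0.000497), a call kept in each alternative. They also fell at 21 h against 6 h (log2 fold change -0.43, SE 0.075, adjusted p = 0.00419), a call lost only without 6 h library 2 (adjusted p = 0.0502) in a range of 0.000421 to 0.0502. The fall in RNA against PBS (log2 fold change -0.42, SE 0.13, adjusted p = 0.0449) was weak: it was lost without PBS library 1 (0.0825), PBS library 2 (0.2302), 21 h library 1 (0.0647) or 21 h library 2 (0.197), and also with no filter (0.0826), without scaling (0.0949), without the variance trend (0.151) and with the replicate block (0.0514), over a range of 0.0139 to 0.2302.

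Tmed2 (ENSMUSG00000029390), the beta member and a partner of Tmed10 in p24 complexes, went the other way. Footprints on Tmed2 were at 365.5 and 344 RPKM in the PBS libraries, 291 and 337 at 6 h, and 468 and 459 at 21 h. Tmed2 RNA, the highest of any member, was at 153 and 153 RPKM in the PBS libraries, 135 and 145 at 6 h, and 173 and 175.5 at 21 h. The 21 h libraries lay above all others and the 6 h libraries below PBS in both assays. Tmed2 footprints rose at 21 h against PBS (log2 fold change 0.35, SE 0.089, adjusted p = 0.0143) and against 6 h (log2 fold change 0.54, SE 0.089, adjusted p = 0.00304). The rise against 6 h was kept in each alternative, and that against PBS was lost without PBS library 2 (adjusted p = 0.0635) or without the variance trend (0.0735), in a range of 0.0019 to 0.0735. RNA was not called (log2 fold change 0.10, adjusted p = 0.395 at 21 h against PBS). Tmed10 made up 52.6% and 53.2% of the summed footprints of Tmed10 and Tmed2 in PBS, 54.3% and 51.9% at 6 h, and 36.2% and 37.1% at 21 h. The sum itself was at 770.9 and 734.3 RPKM in PBS, 637.4 and 701.4 at 6 h, and 732.9 and 729.7 at 21 h, lowest at 6 h.

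Both called alpha members of the family were higher. Tmed4 (ENSMUSG00000004394) had footprints at 200.3 and 216 RPKM in the PBS libraries, 216 and 208 at 6 h, and 326 and 318 at 21 h. Tmed4 RNA was at 29.6 and 24.6 RPKM in the PBS libraries, 26.4 and 24.4 at 6 h, and 27.9 and 32.01 at 21 h. The 21 h footprint libraries stood apart from the other 4, which overlapped, while in RNA the PBS libraries overlapped both treated groups. Tmed4 footprints rose at 21 h against PBS (log2 fold change 0.59, SE 0.084, adjusted p = 0.000965) and against 6 h (log2 fold change 0.58, SE 0.084, adjusted p = 0.00176), and both calls were kept in each alternative. RNA gave a log2 fold change of 0.061 with an adjusted p of 0.789. Tmed9 (ENSMUSG00000058569), which like Tmed4 carries a tail signal read by COPI, had footprints at 177 and 143 RPKM in the PBS libraries, 177 and 175 at 6 h, and 198.5 and 220.1 at 21 h. Tmed9 RNA was at 33.5 and 37.6 RPKM in the PBS libraries, 36.2 and 25.01 at 6 h, and 39.0 and 37.4 at 21 h. Both 21 h footprint libraries lay above the other 4, of which PBS library 2 was the lowest, and in RNA PBS overlapped both treated groups. The rise of Tmed9 footprints at 21 h against PBS (log2 fold change 0.36, SE 0.11, adjusted p = 0.0286) was lost without PBS library 2 (0.158), 6 h library 1 (0.051), 6 h library 2 (0.0513) or 21 h library 2 (0.122). It was also lost with quantile normalization (0.0582), without the variance trend (0.0974) and with only the 2 groups in the model (0.0508), over a range of 0.0058 to 0.158.

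The other 4 tested p24 genes, Tmed1, Tmed3, Tmed5 and Tmed7, were not called in any comparison. In footprints at 21 h against PBS they ran from a log2 fold change of -0.20 for Tmed3 to 0.28 for Tmed5, with a lowest adjusted p of 0.0778. Over the 8 tested p24 genes the median log2 fold change in that comparison was 0.22, and 5 were above 0. Summed p24 footprints were at 1512 and 1461 RPKM in PBS, 1423 and 1488 at 6 h, and 1661 and 1666 at 21 h, so both 21 h sums lay above the rest, a difference given without a test. Summed p24 RNA was at 334.7 and 339.2, 302.9 and 315.7, and 350.4 and 342.7 RPKM, with both 6 h sums below PBS. The 21 h RNA sums lay above PBS without scaling and on either side of it with scaling, at 336.2 and 312.9 beside 335.7 and 333.1. In footprints the 6 h and PBS sums overlapped without scaling only.

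Of the 3 genes grouped here as lectin cargo receptors, Lman1 (ENSMUSG00000041891) encodes the mannose lectin that carries glycoproteins such as clotting factors out of the ER. It does so together with Mcfd2, its partner and the third gene of the group. Footprints on Lman1 were at 61.7 and 61.3 RPKM in the PBS libraries, 57.03 and 50.2 at 6 h, and 46.5 and 47.4 at 21 h. Lman1 RNA was at 9.99 and 9.655 RPKM in the PBS libraries, 9.91 and 9.45 at 6 h, and 10.7 and 7.37 at 21 h. The footprint groups did not overlap and 21 h was lowest, and in RNA the 21 h libraries fell on either side of PBS. Lman1 footprints fell at 21 h against PBS (log2 fold change -0.42, SE 0.11, adjusted p = 0.0139), a call lost without PBS library 2 (adjusted p = 0.0623) or 21 h library 1 (0.0501), in a range of 0.00241 to 0.0623. The difference between 21 h and 6 h was not called (log2 fold change -0.21, adjusted p = 0.173). Lman2 (ENSMUSG00000021484), a related lectin of the early secretory pathway and the most abundant of the 3 in PBS footprints, had footprints at 86.6 and 83.9 RPKM in the PBS libraries, 84.5 and 88.8 at 6 h, and 89.4 and 94.6 at 21 h. Lman2 RNA was at 19.96 and 18.05 RPKM in the PBS libraries, 21.4 and 20.98 at 6 h, and 14.3 and 17.85 at 21 h. The footprint libraries all lay between 83.9 and 94.6 RPKM, and in RNA both 6 h libraries lay above and both 21 h libraries below PBS. RNA of Lman2 was called lower at 21 h against 6 h (log2 fold change -0.54, SE 0.15, adjusted p = 0.0334) and not at 21 h against PBS (adjusted p = 0.139). The call sat near the threshold and was lost in 10 of 16 alternatives, over a range of 0.000884 to 0.152. Leaving out RNA library 1 or 2 gave an adjusted p of 0.0516 or 0.0510 for PBS, 0.115 or 0.0959 for 6 h, and 0.152 or 0.0516 for 21 h, and it was 0.106 without scaling. Mcfd2 was not called in any comparison.

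Several members were called in 1 assay and not in the other, and the test of that difference is the change in TE, an interaction term in a model that joined all 12 libraries. At 6 h limma called 0 of 32 members, where 0% of all 9295 transcripts were called; 1 member, Arcn1, had an unadjusted p under 0.05, beside 7.64% of all transcripts, and voom called 0 members and 0.151% of all. At 21 h limma again called 0 of 32 members, where 0.409% of all transcripts were called; 7 members, 21.9%, had an unadjusted p under 0.05, beside 12.7% of all transcripts, and voom called 0 members and 1.62% of all. The 7 were Arcn1 (log2 change in TE -0.38), Copg1 (-0.36), Sec23b (-0.47), Sar1a (-0.33), Lman2 (0.39), Preb (0.52) and Tmed4 (0.53). Tmed4 had the lowest adjusted p of the 32, 0.190, with a 95% confidence interval of 0.19 to 0.87. For the other members called in footprints alone, the change in TE was 0.25 (adjusted p = 0.414) for Tmed2, 0.34 (0.561) for Tmed9 and -0.21 (0.774) for Lman1. A p that misses the threshold does not show that RNA and footprints changed alike. The TE of Tmed4, taken between libraries of the same number, was 6.70 and 9.13 in PBS, 7.80 and 8.17 at 6 h, and 11.9 and 10.7 at 21 h, with the 21 h values above the others.

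Other genes of ER to Golgi traffic, from a list of 51 that includes Arf GTPases, SNAREs, tethers and KDEL receptors, were counted for comparison; 49 were listed and 48 tested. In footprints at 21 h against PBS 15 were higher and 9 lower, together 24 of the 48, beside 39.1% of all transcripts, with a median log2 fold change of 0.072. In RNA 4 were higher and 6 lower, 20.8% beside 23.8%, with a median of 0.15. The largest falls in footprints among those called were those of Ergic1 (log2 fold change -1.26, SE 0.13, adjusted p = 0.000179), Stx18 (-0.92, SE 0.14, adjusted p = 0.00143) and Rab2a (-0.90, SE 0.087, adjusted p = 0.000146). Ergic1, a protein that cycles between the ER and the Golgi apparatus, went from 108.2 and 86.3 RPKM in PBS to 38.7 and 43.8 at 21 h. The largest rises were those of Bet1l (1.43, SE 0.45, adjusted p = 0.0333), Stx5a (0.69, SE 0.16, adjusted p = 0.0098) and Cnih4 (0.55, SE 0.11, adjusted p = 0.00489). Bet1l rested on 4 and 6 footprint reads in PBS and 12 and 10 at 21 h. Tmed6 and Tmed11, further p24 genes, were listed in no library.

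Because several members changed at 21 h, their promoters were read from the RefSeq table on GRCm38.p6, 250 bases before to 50 after each start. Entries were found for 29 members and not for Lman1, Arcn1, Tmed2 and Tmed7. The motif ACGTG, on either strand (CACGT is its reverse complement), was searched because it forms the core of elements bound by factors of the ER stress response. It was present in 21 of 29 members, 72.4%, beside 2547 of 8389 genes tested in footprints, 30.4%, and 5886 of 27025 genes in the table, 21.8%. Of the 9 members called in footprints or RNA at 21 h against PBS that had an entry, 5 held it, and the other 4, Copg2, Sec23b, Preb and Tmed4, did not. The ER stress response element, CCAAT, 9 bases of any kind and CCACG, was in 0 of 29 members and in 37 of 27025 genes, 0.137%. A window of 30 bases around the match closest to the start is shown for these 5 called members, 5′ to 3′ on the strand of the gene, with the match in capitals:
Copg1: gtgctcagggcgACGTGgcgggcgggagta
Sec24d: cccgggcgcctgACGTGgcactagcaaccc
Sar1a: agggggcggggcACGTGcgtgcccggaagt
Tmed9: ctccgctgggctACGTGgctcggcagtctg
Tmed10: cagaggcgcgtcACGTGggtgctcccggtt
On GRCm38.p6 these windows lie at chr6:87887931-87887960 (plus strand) for Copg1, chr3:123267460-123267489 (plus strand) for Sec24d, chr10:61680267-61680296 (plus strand) for Sar1a, chr13:55593119-55593148 (plus strand) for Tmed9 and chr12:85374710-85374739 (minus strand) for Tmed10. Among the 5, Sec24d and Tmed10 were lower and Copg1, Sar1a and Tmed9 higher in the assays that called them. A match describes these letters and is no evidence of binding.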

How the data were processed

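The authors deposited RPKM values per transcript for each library, reads per kilobase scaled to the reads of the library; their processing notes name cutadapt, STAR and GRCm39. Whole reads recovered from the RPKM lay within 0.001 of an integer for 100.0% of values. RPKM were scaled inside an assay, filtered at a mean of 1 and tested on log2(RPKM + 0.5) with limma (lmFit, then eBayes with a trend), two-sided, with Benjamini-Hochberg adjustment over all transcripts tested. The added 0.5 shrinks fold changes of low transcripts. TE was tested as assay by treatment. The alternatives were other pseudocounts, filters and scalings, no trend, only the groups compared, a replicate block, voom, a threshold of 0.1 and leaving out each library. Values in every library are given for members called in any comparison and for the most abundant of each role, and the 3 largest rises and falls among the called genes of the other ER to Golgi list are named. Members and lists were chosen with earlier results of these data known; the gene spans and protein sequences were not analysed here. The code was tested on simulated data. Tools were R 4.3.3, limma 3.58.1, Python 3.11.15, pandas 2.3.3, numpy 2.4.6 and matplotlib 3.10.9.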

Additional observations from a re-analysis of the deposited data

Results flagged for a closer look

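For 8 of 32 members footprints differed between the 6 h and 21 h Cis groups, by the test of 21 h against 6 h. That was 25.0% of members, beside 30.7% of all transcripts. With no PBS libraries labelled for each time, a longer time in Cis and a longer time in culture cannot be told apart. The log2 fold change between the times was -1.41 for Copg2, -0.58 for Sec24d, -0.43 for Tmed10 and -0.41 for Sec13. It was 0.58 for Tmed4, 0.54 for Tmed2, 0.44 for Sec23b and 0.41 for Preb.

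In RNA the 6 h and 21 h Cis groups differed by the same test for 3 of 32 members, 9.4%, beside 15.7% of all transcripts. The log2 fold change of 21 h against 6 h was -1.81 for Copg2, 0.91 for Sec23b and -0.54 for Lman2. Of these 11 differences, those of Copg2 and Sec23b passed the test in both assays.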

How the results depend on the processing

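Of the 26 calls of a member in the 4 comparisons that had any, 13 kept their direction and their side of the threshold in every alternative that tested them. Another 13 lost the call in at least 1, and 0 reversed. The RNA calls of Copg2 and Sec24d could not be tested with the minimum of 5 RPKM. The kept calls were 6 of 9 in footprints and 2 of 6 in RNA at 21 h against PBS, and 3 of 8 in footprints and 2 of 3 in RNA at 21 h against 6 h.

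With voom on the recovered reads 1 member was called in footprints at 6 h against PBS, where limma on RPKM called 0. That was 3.12% of members, beside 12.3% of all transcripts. In RNA at 21 h against 6 h voom called 5 members, where limma called 3. Those 5 were 15.6% of members, beside 21.3% of all transcripts. The cause was not tested. Leaving out each library in turn gave 3 to 7 members called in footprints at 21 h against 6 h, where all libraries gave 8, and 2 to 6 in RNA at 21 h against PBS, where all gave 6. The lone library left in a group is then assumed to vary like the others, and fewer libraries were tested.

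With the replicate block, which treats libraries of the same number as related, 9 members were called in footprints at 21 h against PBS and 7 at 21 h against 6 h. In RNA it called 5 and 3 in the same comparisons. The labels give these libraries nothing in common but the number, and deviations of same-numbered libraries from their group means correlated across transcripts at r of -0.0403 to 0.0352.

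Counts over all transcripts moved as well. In footprints at 6 h against PBS 212 transcripts were called, and 17 with no filter, 344 with a minimum of 5 RPKM, 0 without the trend, 442 with only the groups compared, 37 with the replicate block, 1276 with voom, 682 at an adjusted p under 0.1 and 0 to 398 without 1 library. In footprints at 21 h against 6 h 3189 were called, and 1755 and 1601 without 6 h library 1 and 2. In RNA at 6 h against PBS 0 were called, 229 with voom, and 1 with quantile normalization or without 6 h library 1. In RNA at 21 h against PBS 2245 were called, and 1058 and 1105 without PBS library 1 and 2 and 1489 and 1330.0 without 21 h library 1 and 2. In RNA at 21 h against 6 h 1486 were called, 916 with no filter, 790.0 without the trend, 847 and 824 without 6 h library 1 and 2, and 855 and 684 without 21 h library 1 and 2. For TE at 6 h 0 were called, 14 with voom, 3 at an adjusted p under 0.1, and 1 with a pseudocount of 0.1 or the replicate block. For TE at 21 h 38 were called, 8 with no filter, 67 with a minimum of 5 RPKM, 0 without the trend, 3 with only the groups compared, 5 with the replicate block, 151 with voom, 0 with TE taken per replicate number, 86 at an adjusted p under 0.1 and 2 to 43 without 1 library. The cause was not tested.

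Depth limits the low members. Copg2 RNA at 21 h rests on 9 and 7 reads and Copz2 RNA on 3 to 10. Tmed8 fell below the filter on mean level and was not tested. After the reads assigned to Lars2, Tmem38b and Mettl26 are set aside, RNA libraries hold 862476 to 1341584 reads, fewer than any footprint library.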
